A study of Mus musculus with 4 samples.

Results

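The transporter genes described here carry amino acids, or neurotransmitters made from them, across cell membranes. They were chosen by name as every gene called Slc1, Slc3, Slc6, Slc7, Slc36, Slc38 or Slc43 followed by its member number, which gave 61 of the 22479 gene names in the table. RNA was sequenced from whole mammary glands of 4 virgin mice, 2 carrying miR-21 (miR-21+/+) and 2 lacking it (miR-21-/-), to compare gene expression with and without this microRNA. All 4 mice were 2 months old and of the mixed strain 129SV::FVB/N::C57BL/6, and the labels name no Cre transgene or treatment for either group. The deposited table holds 1 FPKM value (fragments scaled to transcript length and to the number of mapped reads) for each genotype, which combines its 2 mice. Differences among the mice of a group cannot be seen in it. No ratio below has a replicate check or a test, and the depth of each library is unknown. Because the gland was taken whole, fewer cells of a type and less RNA per cell cannot be told apart.

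A cell takes up most amino acids through several carriers at once. SLC1 and SLC38 proteins use the sodium gradient or exchange 1 amino acid for another, SLC36 proteins move small amino acids together with protons, and SLC43 proteins let large neutral amino acids pass down their gradient. SLC7 light chains exchange amino acids only when joined to an SLC3 heavy chain, whereas the cationic SLC7 transporters work alone. SLC6 proteins include the reuptake carriers of neurons for serotonin, dopamine, noradrenaline, glycine and GABA as well as carriers of taurine, creatine and neutral amino acids. In the lactating gland such carriers supply amino acids for milk protein, while the virgin gland consists of ducts within a large pad of fat.

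The label of the group holds with exceptions. *Slc3a1* and *Slc3a2* encode heavy chains that do not themselves form the transport path, *Slc6a8* carries creatine, and *Slc43a3* is known as a carrier of purine nucleobases. Of the 61 genes, 33 had a mean of at least 1 FPKM over the 2 genotypes and 28 lay under it. None of the 61 shared its row of the table with another gene. The row that holds miR-21 also holds its host gene *Vmp1* (chromosome 11, 86397276 to 86497345, mm9) and stood at 42.5 FPKM with miR-21 and 68.2 FPKM without it. Poly(A) sequencing of that row does not measure the mature microRNA, so it does not check the genotype.

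Among the 33 genes, 3 were at least 1.5-fold higher in miR-21-/- tissue, namely *Slc6a13*, *Slc7a2* and *Slc1a4*. This was 9.09% of them, beside 4.90% of the 13636 gene names at or above the same mean. At least 1.5-fold lower were 6, namely *Slc36a2*, *Slc43a1*, *Slc38a6*, *Slc7a10*, *Slc1a3* and *Slc38a1*, which was 18.2% beside 5.79% of all names. The other 24 genes lay within 1.5-fold. With so few genes these shares are a description of the list. The median log2 ratio of the 33 genes was -0.04, beside -0.03 over all names, and their quartiles of -0.48 and 0.13 lay wider than the -0.17 and 0.11 of all names. Scaling both genotypes to equal FPKM sums over every row of the table, unnamed rows included, lowered all log2 ratios by 0.63 and left 1 gene higher and 20 lower, beside 0.931% and 64.6% of all names.

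Of the 13 genes with a mean of at least 10 FPKM, 10 had a log2 ratio below 0, 4 were at least 1.5-fold lower (30.8%) and 1 was at least 1.5-fold higher (7.69%). Over the 6823 names at such levels 59.1% lay below 0, and the shares at least 1.5-fold lower and higher were 3.63% and 3.02%. Of the 20 genes between 1 and 10 FPKM, 10 lay below and 10 above 0, with 2 at least 1.5-fold lower and 2 higher, where all 6813 names at such levels had shares of 7.96% and 6.78%.

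**Figure D1:**
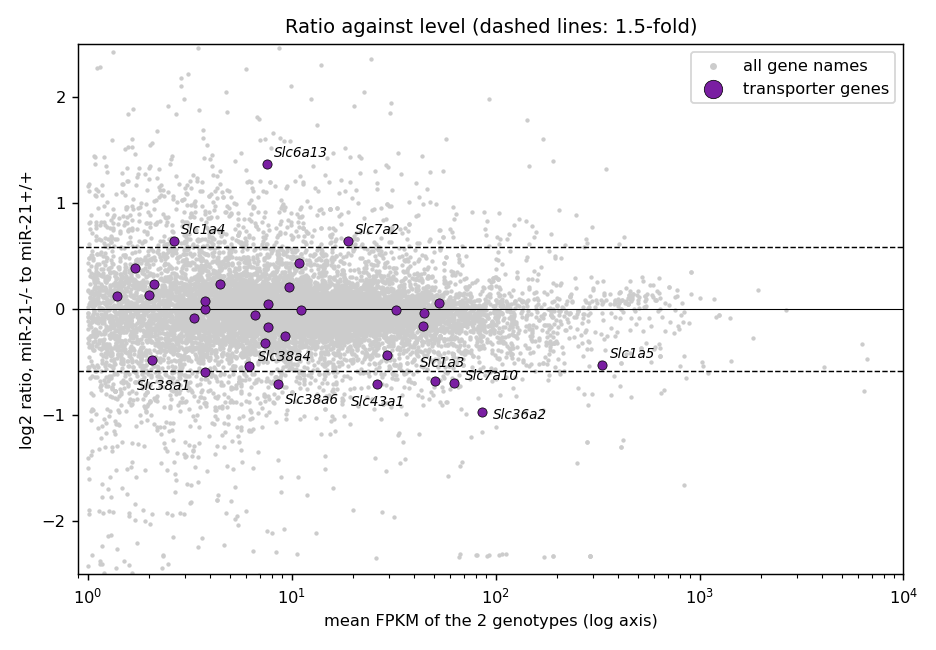
The log2 ratio of miR-21-/- to miR-21+/+ FPKM (vertical axis) is plotted against the mean FPKM of both genotypes (log axis) for the 33 transporter genes (large points) and all 13636 gene names at or above a mean of 1 FPKM (small points), with dashed lines at 1.5-fold. *Slc36a2*, *Slc7a10*, *Slc1a3* and *Slc43a1* sit below the lower line at high levels and *Slc6a13* stands above the other transporter genes, while 59 names lie beyond the axis limit of 2.5 or have no ratio and are not drawn.

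MiR-21 pairs with messenger RNAs through its seed, bases 2 to 8, and matches in 3′ UTRs are the part of the sequence on which such pairing mostly rests. The seed is shown in capitals in the mature sequence (RefSeq, GRCm38.p6), and the 6 matches of 7 letters found in the longest annotated 3′ UTRs of the 33 genes (GENCODE vM1 on mm9) are shown in capitals as DNA, 5′ to 3′ on the strand of the gene.
mmu-miR-21a-5p: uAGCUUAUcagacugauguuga
Slc7a2, chr8:42003661-42003684, plus strand: ctggtgctctttggcATAAGCTga
Slc38a6, chr12:74413907-74413930, plus strand: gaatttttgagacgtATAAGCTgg
Slc7a2, chr8:42004647-42004670, plus strand: tagataatttagatttTAAGCTAt
Slc1a3, chr15:8585905-8585928, minus strand: tattattcttaccaagTAAGCTAc
Slc38a1, chr15:96405715-96405738, minus strand: tgtggatgcccatagcTAAGCTAc
Slc7a6, chr8:108720662-108720685, plus strand: aatgctctctcattggTAAGCTAt

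The first pair match bases 2 to 8 (ATAAGCT) and the other 4 match bases 2 to 7 followed by an A (TAAGCTA), searched on the gene's strand only. ATAAGCT was present in 2 of the 33 genes (6.06%), beside 892 of 12835 names with an annotated 3′ UTR (6.95%). The 8-letter ATAAGCTA, which contains both 7-letter matches, was in 0 of the 33 and in 2.03% of all names. The 6 letters TAAGCT, contained in all of these, were present in 13 of the 33 (39.4%) and in 24.3% of all names, with median 3′ UTR lengths of 2060 and 1142 bases. The genes with these letters had log2 ratios below 0 in 8 and above 0 in 5, with a median of -0.17. The 20 genes without them lay below 0 in 12 and above 0 in 8, with a median of -0.01. The ATAAGCT matches stood in a gene that was higher in miR-21-/- tissue, *Slc7a2*, and in one that was lower, *Slc38a6*. The match of *Slc38a6* starts at 74413922, well inside a row that runs to 74454112. Whether the measured *Slc38a6* transcripts hold that 3′ UTR was not tested. No TAAGCT was in the 3′ UTRs of *Slc6a13*, *Slc36a2*, *Slc7a10*, *Slc43a1* or *Slc1a5*, which are short at 317, 874, 371, 565 and 535 bases. A match in letters does not show that the site is bound.

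Among the SLC1 genes, *Slc1a5* encodes the sodium-dependent exchanger ASCT2, a main route for glutamine. It lies on chromosome 7, 17366651 to 17384328 (mm9, as are all positions of rows below), and was by level the first of the 61 genes in both genotypes. Its level was 395 FPKM in miR-21+/+ and 274 FPKM in miR-21-/- tissue, 1.44-fold lower (log2 ratio -0.53). This gene alone made up 38.2% of the summed FPKM of all 61 genes in miR-21+/+ and 34.6% in miR-21-/- tissue. Its close relative *Slc1a4* encodes ASCT1, which exchanges alanine, serine, cysteine and threonine, and lies on chromosome 11, 20202183 to 20232716. It stood at 2.06 FPKM in miR-21+/+ and 3.22 FPKM in miR-21-/- tissue, 1.56-fold higher (log2 ratio 0.64). The ratio of this low gene was 0.46 after adding 1 FPKM to both values. The exchangers thus differed in direction, and *Slc1a5* carried nearly all of their sum of 397 and 277 FPKM.

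The acidic SLC1 carriers take up glutamate and aspartate and are best known for clearing glutamate around synapses. *Slc1a3*, the carrier GLAST (chromosome 15, 8584124 to 8660807), stood at 62.0 FPKM in miR-21+/+ and 38.6 FPKM in miR-21-/- tissue, 1.61-fold lower (log2 ratio -0.68). Scaling to equal sums over named rows brought it just inside the 1.5-fold limit, at -0.58. *Slc1a1*, the carrier EAAC1, stood at 1.49 and 1.94 FPKM in miR-21+/+ and miR-21-/- tissue (log2 ratio 0.39). The remaining carriers of this kind, *Slc1a2*, *Slc1a6* and *Slc1a7*, did not exceed 0.203 FPKM in either genotype.

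Among the 33 genes the largest fold lower belonged to *Slc36a2*, which encodes the proton-coupled carrier PAT2 for glycine, alanine and proline and is also used as a surface marker of brown adipocytes. It lies on chromosome 11, 54971527 to 54998579, and stood at 114 FPKM in miR-21+/+ and 58.2 FPKM in miR-21-/- tissue, 1.96-fold lower (log2 ratio -0.97). The genes beside it on the chromosome had much lower FPKM values than *Slc36a2* itself. *Slc36a1*, the lysosomal carrier PAT1 found 19.3 kb away, stood at 10.1 and 8.51 FPKM (log2 ratio -0.25), and *Slc36a3*, 6.32 kb away on the other side, was listed at 0.0406 and 0 FPKM, too low for a ratio. *Slc36a4* stood at 6.73 and 6.44 FPKM. The 3 measured SLC36 genes all lay below 0, as did 55.6% of all names. *Slc36a4* passed to 0.04 when named rows were scaled to equal sums. The rows of *Slc36a1* and *Slc36a4* were marked as failed by the authors' program. Of the *Slc36a2* mRNA, 3.70% of the stretches of 50 bases also occur in at least 1 other gene, among them *Slc36a1*.

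The heavy chain *Slc3a2* (CD98) anchors the SLC7 light chains in the membrane, and its level was close between genotypes, at 51.6 FPKM in miR-21+/+ and 53.9 FPKM in miR-21-/- tissue (log2 ratio 0.06). Its partner *Slc7a10* was lower. *Slc7a10* encodes Asc-1, an exchanger of small neutral amino acids including D-serine, and serves as a surface marker of white adipocytes. Its row on chromosome 7, 35971362 to 36000364, held 77.4 FPKM in miR-21+/+ and 47.8 FPKM in miR-21-/- tissue, 1.62-fold lower (log2 ratio -0.70). Within 5 kb of this row lay 6 unnamed rows of 0.761 to 2.82 FPKM in miR-21+/+ tissue, and all 6 were lower in miR-21-/- tissue, at 0.142 to 0.967 FPKM (log2 ratios -2.88 to -1.28). These are low rows, and the share of all 8023 unnamed rows that were lower was not computed, so the count is description only. Whether their reads belong to *Slc7a10* was not tested.

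The other light chains that pair with *Slc3a2* were close between genotypes. *Slc7a5*, LAT1, which brings in leucine and other large neutral amino acids, stood at 11.1 FPKM in both. *Slc7a8*, LAT2, stood at 7.55 FPKM in miR-21+/+ and 7.83 FPKM in miR-21-/- tissue. *Slc7a6* and *Slc7a7* exchange cationic for neutral amino acids and had log2 ratios of -0.17 (8.10 to 7.18 FPKM) and 0.24 (4.09 to 4.84 FPKM). *Slc7a11*, the cystine and glutamate exchanger xCT, stood at 3.63 and 3.85 FPKM. Hence the summed light chain level of 113 FPKM in miR-21+/+ and 83.1 FPKM in miR-21-/- tissue differed mainly through *Slc7a10*. The second heavy chain, *Slc3a1*, and the renal light chain *Slc7a9* were at or under 0.359 FPKM, and *Slc7a12* was listed at 0 in both genotypes.

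The cationic carriers of SLC7 import arginine, lysine and ornithine. *Slc7a2* (CAT2, chromosome 8, 41947721 to 42007427) stood at 14.7 FPKM in miR-21+/+ and 22.9 FPKM in miR-21-/- tissue, 1.56-fold higher (log2 ratio 0.64). The more general carrier *Slc7a1* (CAT1) was nearly the same in both, at 3.74 and 3.73 FPKM. The related *Slc7a4* stood at 2.41 and 1.73 FPKM (log2 ratio -0.48), and *Slc7a14* at 1.34 and 1.46 FPKM. *Slc7a3*, the third cationic carrier, did not exceed 0.731 FPKM.

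All 7 SLC38 genes with a mean of at least 1 FPKM had log2 ratios below 0, from -0.71 to -0.04. Of these, *Slc38a2* and *Slc38a9* passed above 0 when named rows were scaled to equal sums. Over all 13636 names 55.6% lay below 0. The highest levels were those of *Slc38a2* and *Slc38a10*. *Slc38a2* encodes SNAT2, a carrier of alanine and glutamine that cells raise when amino acids are scarce, and stood at 45.1 FPKM in miR-21+/+ and 43.8 FPKM in miR-21-/- tissue. *Slc38a10* stood at 46.4 and 41.5 FPKM (log2 ratio -0.16). These abundant members were thus close between genotypes, and the larger ratios belonged to lower genes. *Slc38a6* (chromosome 12, 74377040 to 74454112) stood at 10.7 FPKM in miR-21+/+ and 6.50 FPKM in miR-21-/- tissue, 1.64-fold lower (log2 ratio -0.71). The system A carriers *Slc38a1* and *Slc38a4*, which import small neutral amino acids with sodium, lay on either side of the 1.5-fold limit. *Slc38a1* stood at 4.55 and 3.02 FPKM (log2 ratio -0.59), in a row that the authors' program marked as failed, and *Slc38a4* stood at 7.34 and 5.06 FPKM (log2 ratio -0.54). *Slc38a1* also fell short of the limit with a pseudocount, with equal sums over named rows and with centring on the median of all names. *Slc38a7*, a glutamine carrier, stood at 8.24 and 6.62 FPKM (log2 ratio -0.32), and *Slc38a9*, the lysosomal arginine sensor upstream of mTORC1, at 3.43 and 3.23 FPKM. The system N carrier *Slc38a3*, with 0.744 and 1.15 FPKM, lay just under the mean of 1 FPKM. It and *Slc38a11* were higher in miR-21-/- tissue, while *Slc38a5* and *Slc38a8*, also under that mean, were lower.

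Of the SLC43 genes, *Slc43a1* (LAT3, chromosome 2, 84679029 to 84703793) carries leucine and other large neutral amino acids by facilitated diffusion. It stood at 32.4 FPKM in miR-21+/+ and 19.7 FPKM in miR-21-/- tissue, 1.64-fold lower (log2 ratio -0.71). *Slc43a3*, 72.9 kb away, did not differ in this way, at 32.6 and 32.4 FPKM. *Slc43a2*, the related carrier LAT4, stood at 9.06 and 10.5 FPKM (log2 ratio 0.21). The rows of *Slc43a2* and *Slc43a3* were also marked as failed, as were those of *Slc36a1*, *Slc36a4* and *Slc38a9*.

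**Figure D2:**
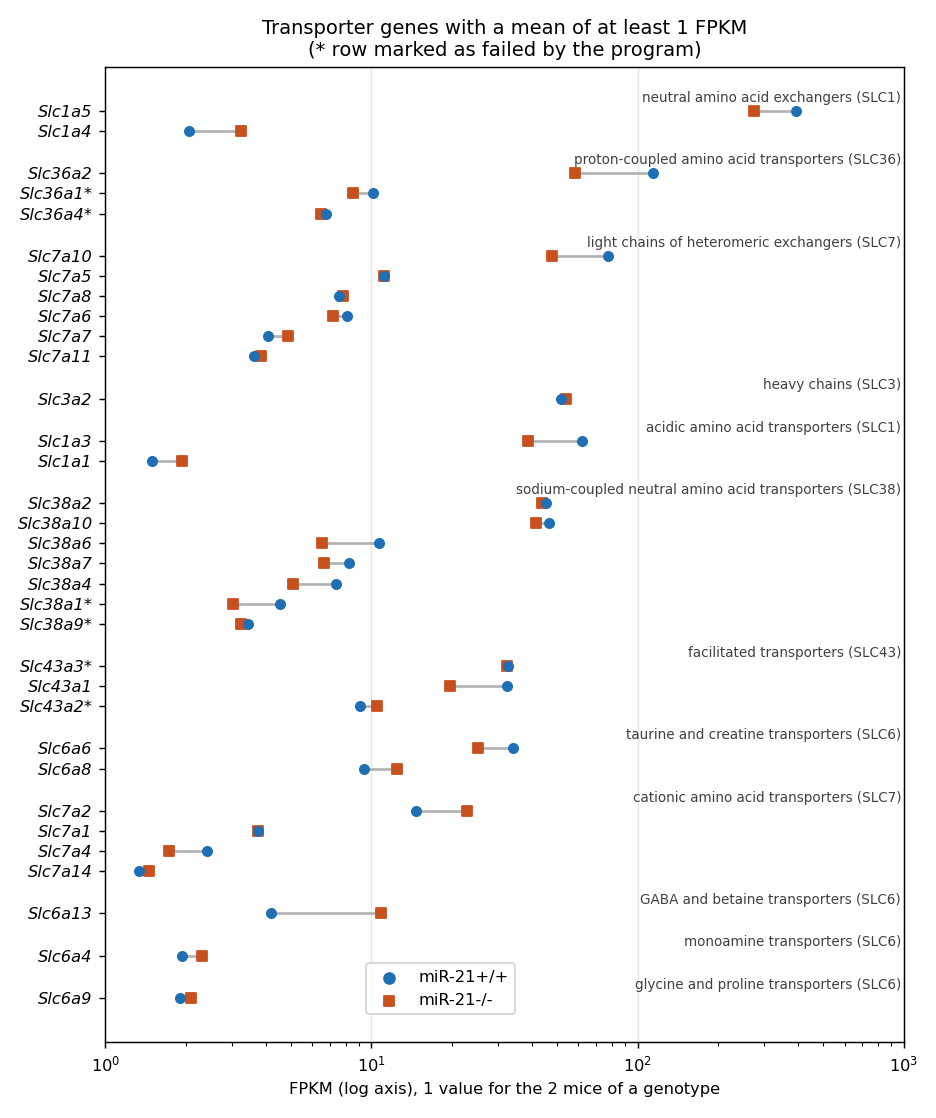
Each line gives the FPKM (log axis) of 1 transporter gene in miR-21+/+ (circles) and miR-21-/- tissue (squares), 1 value for the 2 mice of a genotype, ordered by role, and an asterisk marks rows that the authors' program listed as failed. The widest gap toward higher levels in miR-21-/- tissue is that of *Slc6a13* and the widest toward lower levels that of *Slc36a2*, while *Slc3a2*, *Slc7a5*, *Slc38a2* and *Slc43a3* nearly coincide.

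In the SLC6 family *Slc6a13* had the largest ratio of the 33 genes. It encodes GAT2, a GABA carrier found mainly outside neurons that also takes up taurine, and lies on chromosome 6, 121250314 to 121287736. It stood at 4.20 FPKM in miR-21+/+ and 10.9 FPKM in miR-21-/- tissue, 2.59-fold higher (log2 ratio 1.37). It was the only one of the 33 genes to differ by at least 2-fold in either direction, and it kept its direction under each scaling tried, at 0.74 or more. The betaine carrier *Slc6a12*, 8.98 kb downstream on the same strand, stood at 0.684 and 0.816 FPKM (log2 ratio 0.25). The GABA carrier *Slc6a11*, found mainly in the brain, stood at 0.0159 and 0.0127 FPKM.

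The taurine carrier *Slc6a6* (chromosome 6, 91634061 to 91709061) was the most abundant SLC6 gene, at 33.9 FPKM in miR-21+/+ and 25.1 FPKM in miR-21-/- tissue, 1.35-fold lower (log2 ratio -0.43). The creatine carrier *Slc6a8*, on chromosome X, stood at 9.34 and 12.5 FPKM, 1.34-fold higher (log2 ratio 0.43). Neither reached the 1.5-fold limit. The SLC6 carriers of monoamines and glycine were low. The serotonin carrier *Slc6a4* stood at 1.94 and 2.30 FPKM and the glycine carrier *Slc6a9* at 1.91 and 2.09 FPKM. The noradrenaline carrier *Slc6a2* (0.136 and 0.265 FPKM), the dopamine carrier *Slc6a3* (0.0206 and 0.0439 FPKM) and the neuronal glycine carrier *Slc6a5* (0 and 0.0204 FPKM) were near 0. The proline carrier *Slc6a7* stood at 0.124 and 0.626 FPKM.

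None of the 7 SLC6 carriers of broader amino acid range reached a mean of 1 FPKM. *Slc6a15*, for branched-chain amino acids and proline, came closest at 0.779 and 0.994 FPKM, and *Slc6a14*, *Slc6a17*, *Slc6a18*, *Slc6a19*, *Slc6a20a* and *Slc6a20b* did not exceed 0.350 FPKM. Of the last pair, 22.7% and 18.8% of the stretches of 50 bases also occur in another gene, the largest shares of the 61 genes. Each shares stretches with the other, so reads could be split between them. Across all 28 genes under the mean of 1 FPKM the highest value was 1.15 FPKM, 15 stayed under 0.2 FPKM in both genotypes, and 4 were listed at 0 in at least 1 genotype. Others of the 28 are *Slc7a13* (0.662 and 0.404 FPKM), *Slc38a11* (0.311 and 0.672), *Slc38a5* (0.254 and 0.151), *Slc7a15* (0.123 and 0.159) and *Slc38a8* (0.0106 and 0.0104). Ratios at values this low, where given for *Slc6a12*, for sums and for counts, are description only and are not read further.

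Summed over all 61 genes, the level was 1034 FPKM in miR-21+/+ and 790 FPKM in miR-21-/- tissue (log2 ratio -0.39), and 640 and 516 FPKM without *Slc1a5* (log2 ratio -0.31). As a share of the FPKM of all named rows this was 0.272% and 0.222%. By role, the proton-coupled SLC36 carriers had the lowest ratio of sums, 131 to 73.2 FPKM (log2 ratio -0.84), followed by the acidic SLC1 carriers, 63.9 to 40.9 FPKM (-0.64). The GABA and betaine carriers, 5.03 to 11.8 FPKM (1.23), and the cationic SLC7 carriers, 22.9 to 30.4 FPKM (0.41), summed higher. Each of these 4 sums rests chiefly on 1 gene, *Slc36a2*, *Slc1a3*, *Slc6a13* and *Slc7a2* in turn. The glycine and proline carriers (2.03 to 2.74 FPKM, 0.43), the monoamine carriers (2.10 to 2.61 FPKM, 0.31), the broad SLC6 carriers (1.67 to 1.91 FPKM, 0.20) and the heavy chains (52.0 to 54.2 FPKM, 0.06) also summed higher. The broad SLC6 sum holds only genes under a mean of 1 FPKM. *Slc6a7*, at 0.124 and 0.626 FPKM, makes up most of the difference in the glycine and proline sum.

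**Figure D3:**
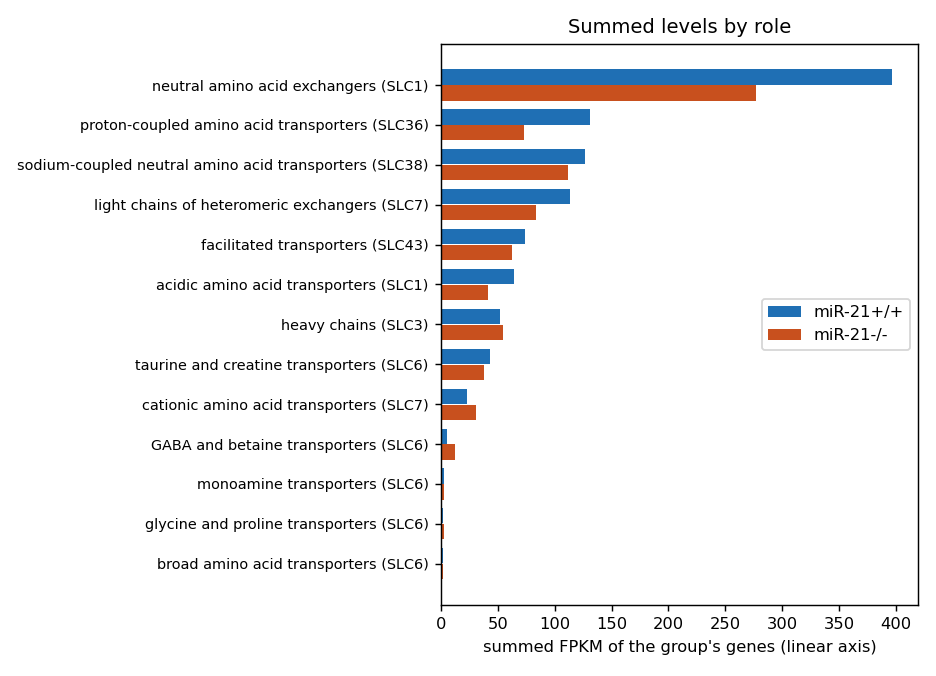
Bars give the summed FPKM (linear axis from 0) of all genes of each transporter role in miR-21+/+ and miR-21-/- tissue, 1 value for each genotype without an error. The neutral SLC1 exchangers, at 397 and 277 FPKM, exceed every other role because of *Slc1a5*, and the heavy chains differ little at 52.0 and 54.2 FPKM.

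Markers of cell types that the gland holds also differed between genotypes. Over all 13636 names 55.6% lay below 0, 5.79% were at least 1.5-fold lower and 4.90% at least 1.5-fold higher. All 7 brown adipocyte markers at or above a mean of 1 FPKM were at least 1.5-fold lower in miR-21-/- tissue (log2 ratios -2.35 to -0.66, summed level of the list 255 to 124 FPKM), *Ucp1* standing at 43.3 and 8.48 FPKM. Of 8 white adipocyte markers, 7 lay below 0 (summed level 19196 to 14416 FPKM), *Adipoq* standing at 1207 and 853 FPKM, and 1, *Lep*, was higher at 27.7 and 67.9 FPKM. No marker of these lists was at 0. The part of either in the lower *Slc36a2* and *Slc7a10* was not tested.

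Markers of epithelium and muscle were higher in miR-21-/- tissue, while 55.6% of all names lay below 0. The 8 luminal markers had a median log2 ratio of 0.52 (648 to 883 FPKM), the 6 basal markers 0.66 (310 to 498 FPKM) and the 8 skeletal muscle markers 0.87 (1168 to 1957 FPKM), and all 22 lay above 0. The lymphocyte markers were lower, with medians of -3.13 for B cells (99.4 to 52.9 FPKM) and -2.10 for T cells (36.9 to 8.36 FPKM). The B cell sum rests mostly on *Cd79a*, at 70.3 and 48.3 FPKM (-0.54). Markers of macrophages (-0.07), endothelium (0.11), mast cells (0.21) and Schwann cells (-0.06) had medians closer to 0. In these lists only the Schwann cell marker *Sox10* (16.4 to 36.1 FPKM, 1.13) and the mast cell marker *Kit* (20.1 to 35.9 FPKM, 0.84) passed 1.5-fold. The part of these cell types in the transporter ratios was not tested.

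**Figure D4:**
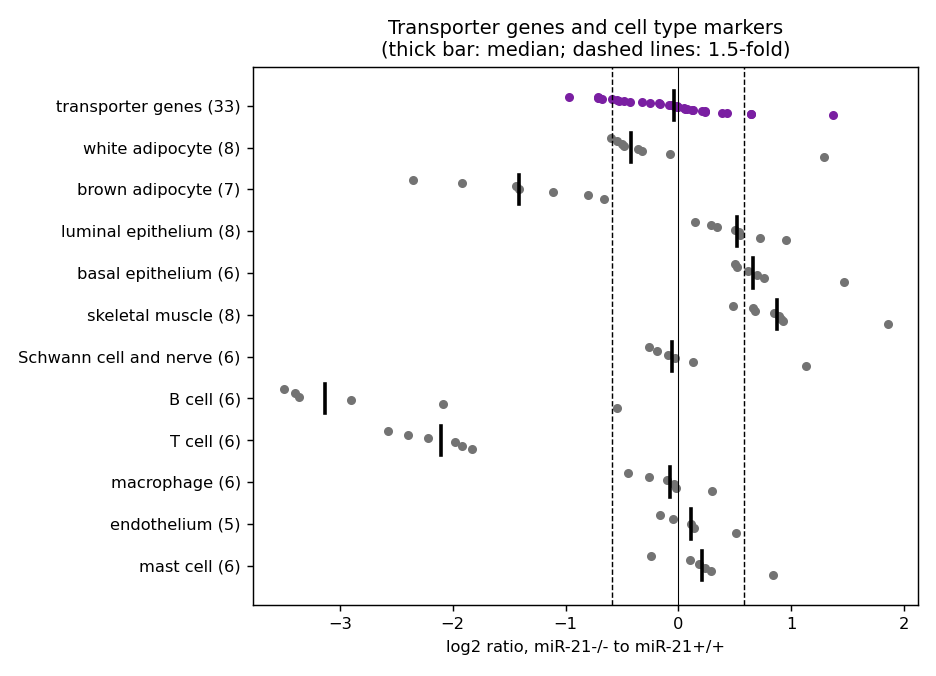
Points give the log2 ratio of miR-21-/- to miR-21+/+ FPKM (horizontal axis) for the 33 transporter genes and for each list of cell type markers, with the number of genes in brackets, a thick bar at the median and dashed lines at 1.5-fold. The transporter genes centre near 0 at -0.04, the brown adipocyte and lymphocyte markers lie to the left, and the epithelial and muscle markers lie to the right.

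Enzymes that handle the same substrates were listed beside the carriers. Of 14 measured enzymes of glutamine, glutamate and branched-chain amino acids, 12 lay below 0 and 2 were at least 1.5-fold lower, the branched-chain transaminase *Bcat2* (76.4 to 46.7 FPKM, log2 ratio -0.71) and the alanine transaminase *Gpt2* (65.5 to 41.2 FPKM, -0.67). Over all names 55.6% lay below 0 and 5.79% were at least 1.5-fold lower. Among 10 measured genes that make or break down SLC6 substrates, *Cdo1*, an enzyme of taurine synthesis, was at least 1.5-fold lower (464 to 299 FPKM, -0.63). *Gamt*, the last enzyme of creatine synthesis, was at least 1.5-fold higher (5.70 to 8.69 FPKM, 0.61), whereas *Gatm*, the enzyme before it, stood at 8.80 and 9.57 FPKM (0.12). *Tph1*, the first enzyme of serotonin synthesis, stood at 1.5 and 14.6 FPKM (3.29), while the serotonin carrier *Slc6a4* had a log2 ratio of 0.24. Of 13 measured transporters of amino acids, peptides and transmitters in other families, none was at least 1.5-fold lower and 1 was higher, the peptide carrier *Slc15a2* (3.88 to 12.3 FPKM, 1.67), beside 5.79% and 4.90% of all names.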

How the data were processed

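The authors isolated poly(A) RNA from 4 mammary glands, sequenced it from a single end, and processed the reads with TopHat (genome mm9) and Cufflinks. Program versions are not given in the sources used here. The authors deposited 1 Cuffdiff table of 30506 rows, with 1 FPKM value for each genotype, normalized to transcript length and mapped reads. Its fold change, test statistic, p-value, q-value and call columns hold the authors' own comparison and were not used, and the row status served only to mark failed rows. The table gives no read counts.

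The FPKM columns were compared as a plain log2 ratio (Python 3.11.15, pandas 2.3.3, numpy 2.4.6). Each gene name was represented by its row with the highest mean FPKM. Genes were counted at a mean of at least 1 FPKM and a ratio of at least 1.5, a limit of size without a test. All members at that mean were named (1 member under it is not reported here), as were other listed genes past the limit, up to 4 in each direction for a list. Members and lists were chosen with earlier results of these data known. Coordinates count from 1. The steps were tested on simulated data. Seed matches were sought in the longest annotated 3′ UTR. Alternatives covered scaling, pseudocounts, level and fold limits, merged rows and failed rows.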

Additional observations from a re-analysis of the deposited data

How the results depend on the processing

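No paired analysis was possible because there was 1 FPKM value for each genotype, and for the same reason leaving out each mouse could not be run. The median log2 ratio of the transporter genes, -0.04, was -0.17 both for the 22 genes above 5 FPKM in at least 1 genotype and for the 22 with a mean of at least 5 FPKM, and -0.67 with equal sums over all rows. The medians of all names under these settings were -0.03, -0.03 and -0.66. With equal sums over named rows the transporter median was 0.06, beside 0.07 for all names. That scaling left 3 genes higher and 4 lower, beside 6.54% and 4.36% of all names. The counts of 3 genes higher and 6 lower were 8 and 11 of 57 genes above 0 in both genotypes (beside 9.29% and 10.3% of all names), 1 and 20 with equal sums over all rows, 1 and 0 at 2-fold (1.66% and 2.10%), and 5 and 10 at a looser limit of 0.32 on the log2 scale (10.3% and 13.6%). These limits differ by construction, and the cause of the shift between sums of named and of all rows was not tested. With equal sums over all rows 16 of the 33 genes crossed the 1.5-fold limit, among them *Slc7a2* and *Slc1a4*, each at 0.01. Genes with a seed match numbered 2 for ATAAGCT, 0 for the 8 letters and 13 for the 6 letters. The share of all 61 genes in the summed FPKM had a log2 ratio of -0.29 over named rows and -1.02 over all rows. Leaving out the failed rows was an alternative chosen after seeing the data. It kept 27 genes with 3 higher (11.1%) and 5 lower (18.5%), beside 5.12% and 5.94% of all names. Of the 33 rows, 6 (18.2%) were marked as failed, beside 8.62% of all names. No gene past the 1.5-fold limit changed direction under these scalings and pseudocounts. Only 2 mice for each genotype and no per-mouse value limit every ratio.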

Other observations

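The amino acid response list held *Atf4*, genes that ATF4 turns on when amino acids run short, and the kinase genes *Eif2ak3* and *Eif2ak4*. Its 20 genes had a median log2 ratio of 0.04, 11 above and 9 below 0. None was at least 1.5-fold higher and 5 were at least 1.5-fold lower in miR-21-/- tissue, beside 4.90% and 5.79% of all names. These included *Ddit4*, an inhibitor of mTORC1 signalling (38.2 to 20.6 FPKM, -0.89), *Cth*, an enzyme of cysteine synthesis (2.78 to 1.57 FPKM, -0.82), *Psat1* of serine synthesis (38.7 to 23.0 FPKM, -0.75) and *Mthfd2* of mitochondrial folate metabolism (4.40 to 2.69 FPKM, -0.71). *Atf4* itself stood at 60.6 FPKM in miR-21+/+ and 62.8 FPKM in miR-21-/- tissue (0.05). Of 15 measured genes of the machinery by which mTORC1 senses amino acids, 0 passed 1.5-fold, with log2 ratios from -0.25 to 0.21. No test was possible for either list.

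The table also holds 17 unnamed rows at or within 5 kb of 8 of the transporter genes. Besides the 6 rows near *Slc7a10*, 2 at *Slc38a6* were lower in miR-21-/- tissue. Of these 2, 1 covers the same positions as the named row of *Slc38a6* (log2 ratio -0.50) and 1 lies beyond its end (-0.80). The other 9, near 6 genes, were lower in 5 and higher in 4. No share over all unnamed rows was computed to set beside these counts, so they are description only.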
